A study of Homo sapiens with 6 samples.

Results

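Amino acid transporters are membrane carriers, most of them of the solute carrier (SLC) families, and 36 of their genes were described here. Members were the listed genes measured by probe sets whose annotation names that gene alone. All 36 were measured, by 93 of the 54613 probe sets in the table, out of 19775 genes in all. Of the 36 genes, 11 rested on 1 probe set and none on more than 6. By site, 26 members act mainly at the plasma membrane, 7 in the lysosome and 3 in the inner membrane of the mitochondrion, and they fall into 10 SLC families plus cystinosin. The list is a little wider than its name. SLC6A8 carries creatine, SLC6A6 carries taurine and SLC43A3 carries purine nucleobases.

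LP-1 cells come from human multiple myeloma, a cancer of plasma cells, and the LP-1/Cfz line was derived from them by growth in rising amounts of carfilzomib, an irreversible inhibitor of the proteasome. The LP-1/Cfz cells were resistant to 12 nM carfilzomib and had spent 1 week out of the drug before RNA was taken, while the LP-1 cells had never been selected in it, so that neither line was under the drug when profiled. The labels give 4% serum for the medium of both lines, the study's methods a higher content, and 3 arrays were run per line. LP-1/Cfz is 1 resistant derivative of 1 parental line, and no source used here states that its 3 samples were grown apart. The p-values therefore rest on the differences among these samples, possibly technical ones alone.

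Plasma cells secrete large amounts of protein and draw heavily on amino acids from their surroundings. At the surface, sodium-driven carriers of the SLC1, SLC6 and SLC38 families concentrate amino acids in the cell, exchangers of the SLC7 family trade one amino acid for another, and facilitators of the SLC16 and SLC43 families let them run down their gradients. Lysosomal carriers return amino acids and dipeptides from broken-down protein to the cytosol, and mitochondrial SLC25 carriers link them to respiration and the malate-aspartate shuttle.

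All values below are log2 values that the deposited table gives relative to a baseline for each probe set, which is not stated. A value therefore shows how the arrays differ for 1 gene and not how strongly the gene is expressed, and no order of expression levels between transporters can be given. The medians of the 6 arrays lay between 0.00 and 0.02. LP-1/Cfz replicate 3 stood apart, where the interquartile range was 0.338 log2 units (0.230 to 0.264 on the other arrays), with correlations of 0.891 and 0.903 with the rest of its group, whose other pair reached 0.941. Of 10 plasma cell markers, 3 were higher in the resistant line, MZB1 (0.39), SDC1 (0.38) and TNFRSF17 (0.27). The 2 lower ones were CD38 (-1.07) and SLAMF7 (-2.17). Over all genes, 16.7% differed (6.72% higher, 10% lower). Of 6 T and NK cell markers, 1 was lower (GNLY, -0.30), the same share as over all genes, and none of the 4 measured myeloid or 6 stromal markers passed the test. Because the values are centred, presence or absence of a marker in both lines cannot be read from them.

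In LP-1/Cfz, 6 of the 36 transporter genes were higher and 3 were lower than in LP-1 at a Benjamini-Hochberg adjusted p under 0.05 in limma, which is 25% of the members against 16.7% of all genes tested. The higher genes were SLC16A10, SLC6A8, SLC7A7, SLC38A2, SLC25A13 and SLC38A5, and the lower ones SLC15A4, SLC1A4 and SLC43A1. Over all genes, 6.72% were higher and 10% lower. The differences were small for the most part, and SLC16A10 alone reached the 1.7-fold cutoff used in the study, which 1.71% of all genes reached. At the probe set level 2 of its probe sets and none of the others reached it, against 1.59% of all probe sets. The median difference of the members was 0.04 on the log2 scale, beside 0.02 over all genes, with 25 members above 0 and 11 below. Of the 93 probe sets, 14 were higher and 6 lower, against a background of 11.0% of all probe sets called, 4.25% higher and 6.76% lower. The 6 lower probe sets belonged to SLC1A4 and SLC15A4 and became 3 without LP-1/Cfz replicate 1, or without LP-1 replicate 1, 2 or 3. Here and below, the share of all genes or probe sets called with an array left out is not given. A fall in calls with fewer arrays can therefore not be read as particular to the genes described. Without LP-1/Cfz replicate 3, the array that stood apart, 9 genes were called again, 7 higher and 2 lower, with SLC38A7 gained and SLC43A1 lost, and the differences of the other 8 ran from -0.33 (SLC15A4) to 0.91 (SLC16A10). In RNA from whole cultures, a transcript carried by fewer cells and one at a lower amount per cell cannot be told apart.

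**Figure D1:**
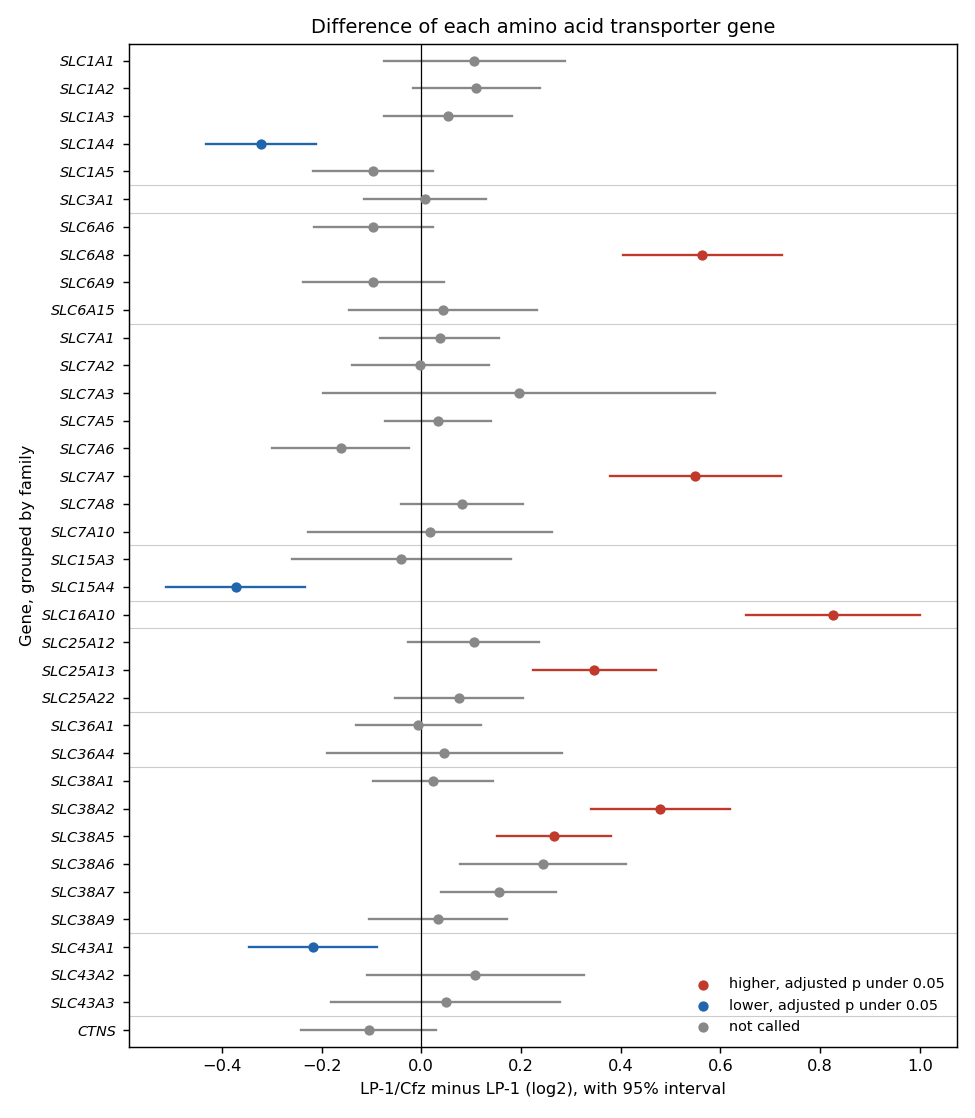
Difference between LP-1/Cfz and LP-1 for each of the 36 transporter genes, on the x axis in log2 units, with genes grouped by family down the y axis. Points are the difference of the means of 3 arrays per line, bars are 95% intervals from the limma fit, and SLC16A10 lies farthest to the right at 0.83 and SLC15A4 farthest to the left at -0.37.

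Among the surface carriers, the largest difference was that of SLC16A10, a facilitator that lets tyrosine, tryptophan and phenylalanine across the membrane. Its values were 0.78, 0.73 and 0.51 on the LP-1/Cfz arrays and -0.11, -0.15 and -0.19 on the LP-1 arrays. All LP-1/Cfz arrays were high, and replicate 3 was the lowest of them. The difference was 0.83 (SE 0.08, 1.77-fold higher, adjusted p = 0.000304 in limma). Each of its 3 probe sets was called, with differences of 0.59, 1.06 and 0.83. On the probe set at 0.83, LP-1/Cfz replicate 3 stood at 0.19 where replicates 1 and 2 stood at 0.76 and 0.77.

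SLC6A8, the sodium- and chloride-driven creatine transporter, had values of 0.56, 0.35 and 0.54 on LP-1/Cfz and -0.12, -0.02 and -0.10 on LP-1. The groups were clearly apart, with LP-1/Cfz replicate 2 the lowest of the resistant line. The difference was 0.56 (SE 0.07, 1.48-fold higher, adjusted p = 0.00126 in limma), and all 3 probe sets were called at 0.68, 0.55 and 0.46. A further 3 probe sets name SLC6A8 together with a pseudogene copy and were left out. Because near-identical copies can share probes, the value of SLC6A8 is uncertain to that extent. The other SLC6 members were not called. They were SLC6A6 (-0.10), the glycine transporter SLC6A9 (-0.10) and the neutral amino acid carrier SLC6A15 (0.04).

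SLC7A7 is the light chain of an exchanger that releases arginine and lysine in return for sodium and neutral amino acids. It was measured by 1 probe set, at -1.02, -1.22 and -1.27 on LP-1/Cfz and at -1.76, -1.74 and -1.66 on LP-1. Both lines lay under the baseline of the table, LP-1/Cfz less far than LP-1, and the groups did not overlap. The difference was 0.55 (SE 0.07, 1.46-fold higher, adjusted p = 0.00198 in limma). None of the other 7 SLC7 members was called. The large neutral amino acid exchanger SLC7A5 was at 0.03 (95% interval -0.07 to 0.14), and the arginine and lysine carrier SLC7A1 at 0.04. SLC7A2 (0.00), SLC7A3 (0.20), SLC7A8 (0.08) and SLC7A10 (0.02) overlapped between the lines as well. SLC7A6, which does the same kind of exchange as SLC7A7, stood at -0.31, -0.39 and -0.50 on LP-1/Cfz and at -0.24, -0.23 and -0.24 on LP-1. Every LP-1/Cfz array was below every LP-1 array, but the difference of -0.16 did not pass the adjusted threshold (adjusted p = 0.111 in limma).

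In the SLC38 family of sodium-coupled neutral amino acid transporters, all 6 members on the list had differences above 0, with a median of 0.20 (0.02 over all genes). Of them, 2 passed the test, both higher, where 6.72% of all genes were higher. Measured genes of the family outside the list were SLC38A3 (0.02), SLC38A4 (0.04), SLC38A10 (0.19) and SLC38A11 (0.22), and none of these was called. SLC38A2, a carrier of alanine, serine and glutamine, stood at 0.34, 0.30 and 0.18 on LP-1/Cfz and at -0.26, -0.21 and -0.16 on LP-1. The LP-1/Cfz arrays were all high, and the spread within each line was a small part of the gap. The difference was 0.48 (SE 0.06, 1.39-fold higher, adjusted p = 0.00145 in limma), and its 3 probe sets gave 0.50, 0.47 and 0.47, all called. By their suffixes, all 3 may read several related transcripts, as set out for SLC1A4 below. SLC38A5, which carries glutamine, histidine and serine, was measured by 1 probe set at -0.02, -0.02 and -0.09 on LP-1/Cfz and at -0.30, -0.35 and -0.28 on LP-1. Again no LP-1 array reached the LP-1/Cfz arrays. The difference was 0.27 (SE 0.05, 1.20-fold higher, adjusted p = 0.00873 in limma).

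The remaining SLC38 members did not pass at the gene level. SLC38A6 was at 0.42, 0.68 and 0.58 on LP-1/Cfz and at 0.32, 0.34 and 0.28 on LP-1, without overlap, and its difference of 0.24 had an adjusted p of 0.0558 in limma. Without LP-1/Cfz replicate 1, the lowest of its group, the difference was 0.32 and the adjusted p 0.0197. SLC38A7, a lysosomal carrier of glutamine and asparagine, was at 0.16 (adjusted p = 0.0733 in limma), with 1 of its 4 probe sets called at 0.23 (adjusted p = 0.0475). Without LP-1/Cfz replicate 3 its gene value was 0.18 with an adjusted p of 0.0424. SLC38A1 (0.02), a close relative of SLC38A2, and the lysosomal arginine sensor SLC38A9 (0.03) overlapped between the lines.

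SLC1A4, an exchanger of alanine, serine and cysteine, was lower in LP-1/Cfz, at -0.39, -0.36 and -0.44 against -0.09, -0.09 and -0.05 on LP-1. All 3 LP-1/Cfz arrays were low and close together. The difference was -0.32 (SE 0.05, 1.25-fold lower, adjusted p = 0.00319 in limma), and 4 of its 5 probe sets were called, between -0.51 and -0.28. The 4 called ones carry the suffixes s_at and x_at of this array, which mark probe sets that may read several related transcripts. The fifth alone was at -0.22 and was not called in the fit without such probe sets (adjusted p = 0.0793). Every probe set of SLC38A2 and SLC7A7 carries such a suffix, so that fit kept them and did not test these members. SLC6A8, SLC16A10 and SLC25A13 have probe sets of both kinds. The glutamine carrier SLC1A5, the closest relative of SLC1A4 among the members, was at -0.10 (95% interval -0.22 to 0.02). It was not called, although its groups did not overlap. The glutamate carriers SLC1A1 (0.11), SLC1A2 (0.11) and SLC1A3 (0.05) were not called either.

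SLC43A1, a facilitator of branched-chain amino acids and other large neutral ones, was at -0.15, -0.06 and -0.17 on LP-1/Cfz and at 0.06, 0.06 and 0.16 on LP-1. The groups did not overlap, but the gap between the nearest arrays was small. The difference of -0.22 (SE 0.06, 1.16-fold lower) had an adjusted p of 0.0327 in the limma fit over genes and 0.0744 in that over probe sets, on the same values of 1 probe set. The gene call was kept only when LP-1/Cfz replicate 2 was left out. Without any one of the other 5 arrays it was lost, with adjusted p between 0.0351 and 0.129 over the 6 fits. The other 8 members kept their call in each of those fits. SLC43A2 (0.11) and SLC43A3 (0.05) overlapped between the lines. SLC3A1, the heavy chain that brings a cystine and dibasic amino acid exchanger of the kidney to the surface, was at 0.01.

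**Figure D2:**
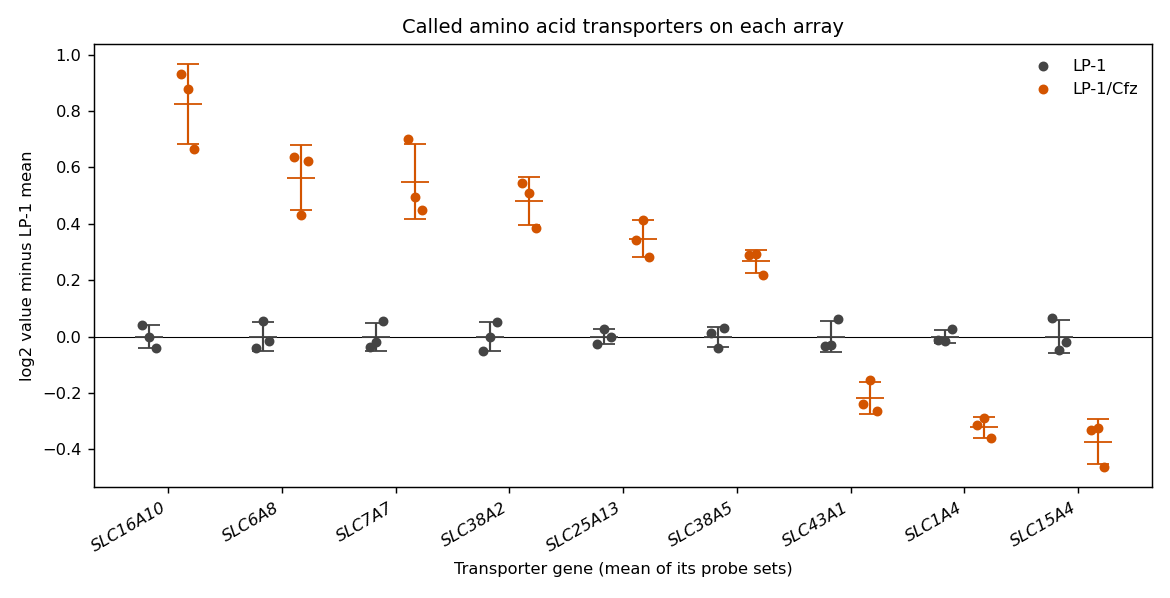
Value of the 9 called transporters on each array, as log2 units from the LP-1 mean of that gene on the y axis, with genes along the x axis. Points are arrays (3 per line), horizontal lines and bars are the mean and SD of a line, and no LP-1/Cfz array of any of these genes falls among the LP-1 arrays.

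Inside the cell, 1 of the 7 lysosomal members was called and it was lower, a share of 14.3% that is near the 16.7% of all genes. SLC15A4 exports histidine and dipeptides from the lysosome and is needed for signalling by endosomal Toll-like receptors. It stood at -0.11, -0.10 and -0.24 on LP-1/Cfz and at 0.29, 0.17 and 0.20 on LP-1. The lines were well apart, with LP-1/Cfz replicate 3 the lowest array. The difference was -0.37 (SE 0.06, 1.29-fold lower, adjusted p = 0.00478 in limma). Of its 3 probe sets, 2 agreed closely at -0.51 and -0.50, while the remaining one was at -0.10 with overlapping groups and was not called. Its relative SLC15A3 (-0.04), the SLC36 carriers SLC36A1 (-0.01) and SLC36A4 (0.05) and the cystine exporter CTNS (-0.11) were not called. Of these, only CTNS had groups that did not overlap.

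Of the mitochondrial members, SLC25A13, which exchanges aspartate for glutamate and feeds the malate-aspartate shuttle and the urea cycle, was higher. Its values were -0.32, -0.25 and -0.39 on LP-1/Cfz and -0.69, -0.64 and -0.67 on LP-1. Both lines were under the baseline and LP-1 was the lower throughout. The difference was 0.35 (SE 0.05, 1.27-fold higher, adjusted p = 0.00361 in limma), with 2 of 3 probe sets called at 0.45 and 0.42 and the other at 0.17. The other aspartate-glutamate carrier, SLC25A12, was at 0.11 (95% interval -0.03 to 0.24), and the glutamate carrier SLC25A22 at 0.08. Neither was called.

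**Figure D3:**
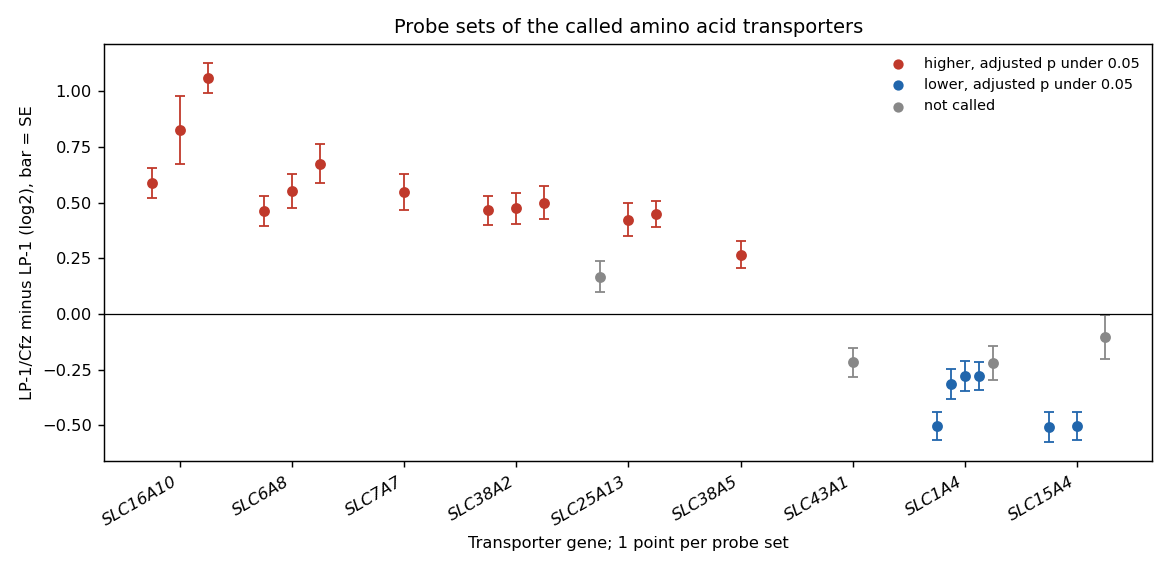
Difference of each probe set of the 9 called transporters, LP-1/Cfz minus LP-1 in log2 units on the y axis, with genes along the x axis and bars for the SE of the probe set fit. Probe sets of 1 gene lie on the same side of 0 in each case, and those not called are 1 of SLC25A13 at 0.17, the 1 of SLC43A1 at -0.22, 1 of SLC1A4 at -0.22 and 1 of SLC15A4 at -0.10.

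Close relatives with the same kind of substrate were set side by side in 4 pairs, which were picked after their values were seen and so carry no test. SLC38A2 lay 0.46 above SLC38A1, SLC7A7 lay 0.71 above SLC7A6, and SLC25A13 lay 0.24 above SLC25A12, each as the difference between the log2 differences of a pair. SLC1A4 and SLC1A5 differed by -0.22 in the same measure. In each pair, the within-array gap between relatives on the LP-1/Cfz arrays did not overlap that on the LP-1 arrays. Each pair holds a called member whose own groups did not overlap, so this separation was largely set by the choice of pairs and adds no support.

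Over all 36 members, the groups did not overlap for 16, with LP-1/Cfz the higher line for 9 of them and LP-1 for 7. Over all genes the groups did not overlap in 35.9%. The 7 uncalled members among the 16 were SLC1A2, SLC38A6 and SLC38A7 on the higher side and SLC1A5, SLC6A6, SLC7A6 and CTNS on the lower. For the 27 members not called, differences ran from -0.16 to 0.24 and the 95% intervals reached from -0.30 to 0.59, the upper end being that of SLC7A3, whose LP-1/Cfz arrays were 0.06, -0.08 and 0.44. Some of these intervals leave room for changes of the size seen in called members, so that a missing call alone does not show equal expression. Others are narrower. Those of SLC7A5 (-0.07 to 0.14) and SLC38A1 (-0.10 to 0.14) do not reach the size of the smallest called difference, that of SLC43A1 at -0.22.

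The promoters of the called members were read for 3 short motifs, as a description without a test. They were the C/EBP-ATF element (TGATGNAA), through which ATF4 acts on genes of amino acid supply, the core of the antioxidant response element (TGACNNNGC), bound by Nrf2, and the E-box (CACGTG) found in promoters bound by TFEB and by MYC. Windows of 250 bases before a RefSeq transcript start and 50 from the start on (GRCh38.p14) were searched on both strands, and 28 of the 36 members, among them all 9 called, had 1 or more, 51 windows in all. The TGATGNAA motif was in 3.62% of the 35116 windows of all genes and in 5 of the 51 member windows, those of SLC1A3, SLC1A4, SLC1A5, SLC38A1 and SLC7A1. None of these is a higher member and SLC1A4 is a lower one. TGACNNNGC was in 13.4% of all windows and in 9 of the 51. The members with it were SLC25A13 and SLC7A7 among the higher, SLC15A4 among the lower, and 6 that were not called. CACGTG was in 7.26% of all windows and in 10 of the 51. Its members were SLC25A13, SLC7A7 and SLC38A5 among the higher, SLC43A1 among the lower, and 6 that were not called. A match is a run of letters and not a binding site, and a window without one says nothing about the factor.

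Stretches from 4 of these windows are given 5′ to 3′ along the gene, ending at the base before the start for the first 3 and 10 bases past it for SLC1A4, with motif matches in capitals. SLC16A10 (chr6:111087253-111087502, plus strand) is shown as the member with the largest difference and has none of the 3 motifs there. SLC25A13 (chr7:96322099-96322348, minus strand) holds a TGACNNNGC match on the reverse strand, beginning 161 bases before the start, and it shares 2 bases with an E-box that begins 154 bases before the start. SLC7A7 (chr14:22815872-22816121, minus strand) is shown for the E-box 225 bases before one of its starts, and SLC1A4 (chr2:64989149-64989408, plus strand) for the TGATGNAA match on the reverse strand that begins 7 bases before one of its starts.
SLC16A10: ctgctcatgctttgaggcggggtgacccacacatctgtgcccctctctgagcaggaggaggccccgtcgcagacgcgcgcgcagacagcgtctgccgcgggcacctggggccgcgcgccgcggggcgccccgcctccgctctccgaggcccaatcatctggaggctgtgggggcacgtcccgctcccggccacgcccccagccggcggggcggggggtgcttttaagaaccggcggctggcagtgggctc
SLC25A13: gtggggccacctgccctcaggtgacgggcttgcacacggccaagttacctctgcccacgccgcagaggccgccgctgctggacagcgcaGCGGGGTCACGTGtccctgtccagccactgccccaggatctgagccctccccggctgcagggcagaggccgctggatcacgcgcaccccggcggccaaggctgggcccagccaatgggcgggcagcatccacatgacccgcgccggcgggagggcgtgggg
SLC7A7: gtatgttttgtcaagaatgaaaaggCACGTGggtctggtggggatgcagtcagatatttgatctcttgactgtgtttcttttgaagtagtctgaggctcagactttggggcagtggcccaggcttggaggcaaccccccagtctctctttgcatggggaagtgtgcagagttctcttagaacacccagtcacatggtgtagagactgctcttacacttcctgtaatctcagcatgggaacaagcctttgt
SLC1A4: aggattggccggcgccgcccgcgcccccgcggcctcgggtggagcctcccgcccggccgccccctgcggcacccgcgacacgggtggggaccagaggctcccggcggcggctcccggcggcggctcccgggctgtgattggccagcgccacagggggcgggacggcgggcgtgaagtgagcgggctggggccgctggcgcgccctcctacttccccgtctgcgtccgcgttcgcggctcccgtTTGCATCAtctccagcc

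The genes next to each member on its chromosome were counted, 10 measured genes on either side in RefSeq order, as a description without a test. SLC6A8, on chromosome X, was the called member with the most higher neighbours. Of its 20 neighbours, 7 were higher and 0 lower, with a median difference of 0.16, and the adjacent gene BCAP31 was at 0.55. SLC7A3, also on X and not called, had 8 higher and 1 lower neighbours. SLC38A5, at another place on X, had 0 higher and 2 lower. Of the 696 measured genes on X, 163 were higher and 41 lower, against 1328 higher and 1984 lower of 19775 genes in all. SLC16A10 on chromosome 6 had 1 higher and 1 lower neighbour, SLC38A2 had 2 and 0, SLC7A7 had 2 and 3, and SLC25A13 had 3 and 1. Among the lower members, SLC15A4 had 0 higher and 3 lower neighbours, SLC43A1 had 0 and 3, and SLC1A4 had 3 and 1. Whether the shared direction around SLC6A8 has a part in its difference was not tested.

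**Figure D4:**
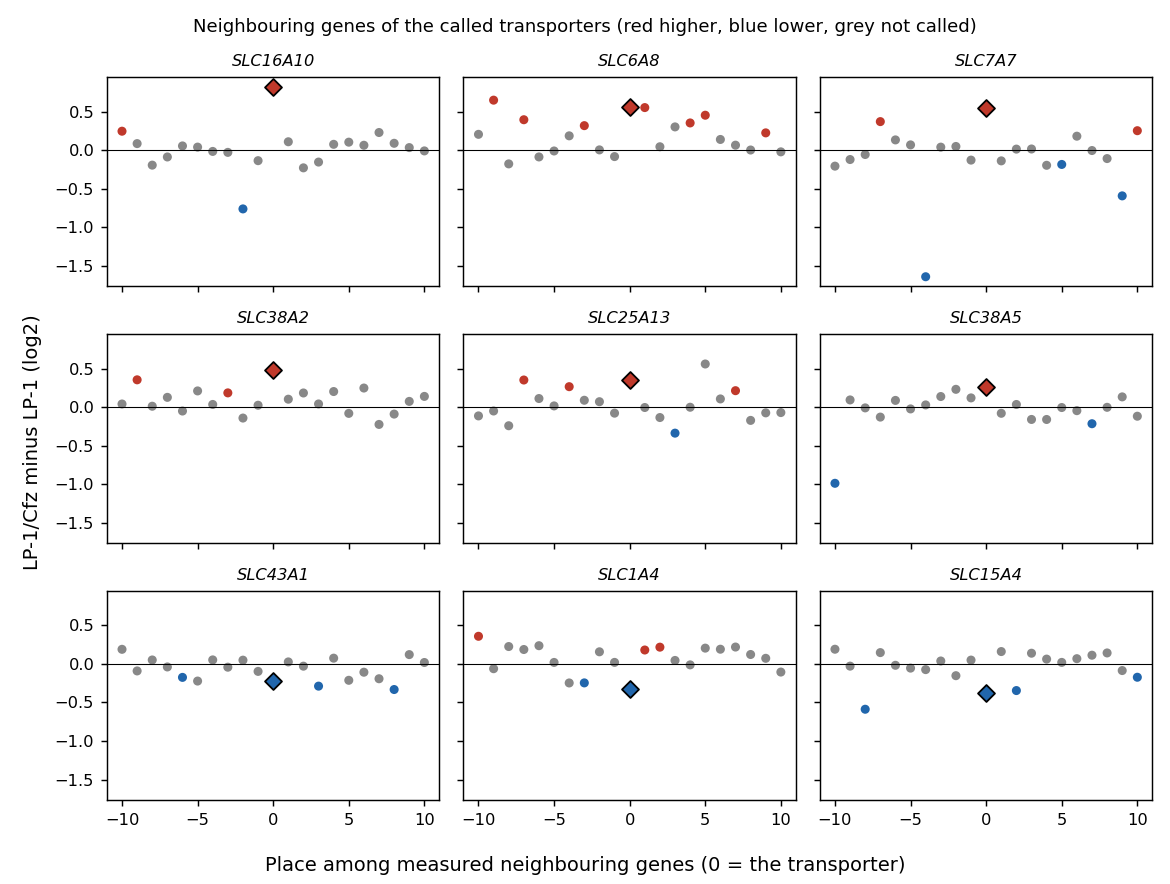
Differences of the 10 measured genes on either side of each called transporter, LP-1/Cfz minus LP-1 in log2 units on the y axis and place in gene order on the x axis, with the transporter as a diamond at 0. Around SLC6A8, 7 of 20 neighbours are higher and 0 lower, while around SLC16A10 1 is higher and 1 lower.

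Other genes that carry, sense or respond to amino acids were set beside the members. Outside the list, 37 transporters of amino acids or related compounds were measured. Of these, 4 were higher and 2 lower, or 16.2% against the 16.7% of all genes, with a median of 0.05. SLC7A11, the cystine-glutamate exchanger, was at 0.80, SLC7A14 of the lysosome at 0.59, the vesicular glutamate transporter SLC17A8 at 0.31 and SLC66A1, which exports arginine and lysine from the lysosome, at 0.24. The ornithine carrier SLC25A15 (-0.24) and the mitochondrial carrier SLC25A40 (-0.22) were lower. Not all of their probe sets were called. SLC7A11 had probe sets at 0.94 and 1.015, called, and 0.45, not called. SLC7A14 had 0.91, called, and 0.27, not called, and SLC66A1 had 0.35, called, and 0.25 and 0.11, not called. The 1 probe set of SLC17A8 was not called (adjusted p = 0.0791 in limma). SLC25A15 had -0.32, called, and -0.17, not called, and SLC25A40 had -0.27 and -0.16, neither called. These 6 calls became 2 without LP-1 replicate 1 or without LP-1 replicate 3.

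Of 28 measured genes of lysosomal amino acid sensing, 3 were higher and 1 lower, or 14.3% against the 16.7% of all genes, with a median of 0.03. That share is near the background. TFEB, a transcription factor of lysosomal genes, was at 0.42, RRAGA, a GTPase that recruits mTORC1, at 0.26 and LAMTOR4, part of its anchor on the lysosome, at 0.22, while SEH1L, a subunit of the GATOR complex that also belongs to the nuclear pore, was at -0.26. Probe sets of TFEB were at 0.61, called, and 0.22, not called, and those of SEH1L at -0.38, called, and -0.15, not called. The 1 probe set of LAMTOR4 was not called in the fit over probe sets (adjusted p = 0.0584 in limma). The 4 gene calls became 2 without LP-1/Cfz replicate 1 or LP-1 replicate 1, and 1 without LP-1 replicate 2.

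Of 29 measured genes that respond to a shortage of amino acids or make them, 8 were higher and 10 lower, 62.1% in all against 16.7% of all genes (6.72% higher, 10% lower), with a median of -0.09. The higher ones were led by CHAC1 (1.09), a glutathione-degrading enzyme, the mTORC1 inhibitors SESN2 (0.96) and DDIT4 (0.60), the kinase EIF2AK4 (0.27), which senses uncharged tRNA, and the transcription factor ATF4 (0.26). The lower ones were led by GLUL, the glutamine synthetase, and PSAT1 of serine synthesis (-1.72), followed by the pseudokinase TRIB3 (-0.44), the EIF2AK4 activator GCN1 (-0.44) and the mitochondrial folate enzyme ALDH1L2 (-0.43). Probe sets of EIF2AK4 were at 0.31, called, and 0.23, not called. Those of ALDH1L2 were at -0.65, called, and at -0.37 and -0.26, not called. The 18 calls became 9 without LP-1 replicate 1 and 10 without LP-1 replicate 3. The share of all genes called in those fits is not given, so this fall cannot be set against it.

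GLUL makes the glutamine that SLC38A2, SLC38A5 and SLC1A5 carry. It stood at -2.17, -2.24 and -2.16 on LP-1/Cfz and at -0.03, -0.05 and -0.02 on LP-1, as the mean of 4 probe sets. The LP-1/Cfz arrays were all far below, and the difference was -2.16 (SE 0.05, adjusted p = 3.65e-07 in limma). Its probe sets did not give 1 size. They were 8.51-, 8.87- and 4.62-fold lower, and the remaining one, at -0.19, was not called.

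**Figure D5:**
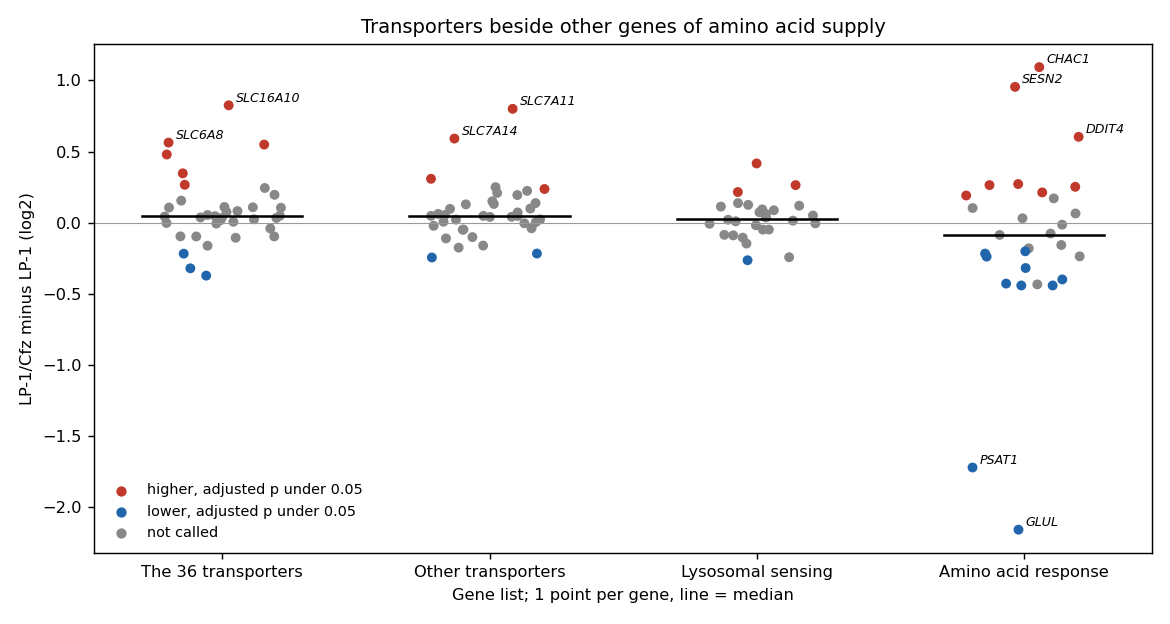
Differences of the genes of 4 lists, LP-1/Cfz minus LP-1 in log2 units on the y axis, with 1 point per gene and a line at each median. The 36 transporters, the other transporters and the lysosomal sensing genes have medians near 0, with 25%, 16.2% and 14.3% of their genes called, while the response list, with 62.1% called, spreads from -2.16 (GLUL) to 1.09 (CHAC1).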

How the data were processed

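RNA of 3 LP-1/Cfz and 3 LP-1 samples was measured on Affymetrix U133 Plus 2.0 arrays, 1 array per sample. The deposited table holds log2 values of 54613 probe sets, centred by the authors per probe set on a baseline that the sources used here do not give. The submitters' notes name RMA, with no version. Signal over background cannot be read from centred values. The number of arrays limits the precision.

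Probe sets were named through the array's annotation table. Of them, 41091 name 1 gene, 1801 several and 11721 none. Of the single-gene probe sets, 41037 matched RefSeq and 0 symbols were updated. Members were taken from single-gene probe sets, and a gene value is the mean of its probe sets.

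The lines were compared in limma 3.58.1 (lmFit, eBayes, R 4.3.3), without covariates, over 54613 probe sets and again over 19775 genes. A call is a Benjamini-Hochberg adjusted p under 0.05 over all features. With 3 against 3 arrays an exact permutation test cannot give a two-sided p under 0.1, so none is used. The scripts were tested on simulated data.

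The members, gene lists, motifs and tests were chosen with earlier results of these data known. Of the called members, up to 6 in each direction were given with their value on every array, and of each other list up to 5 per direction were named. SLC38A6, SLC7A6, SLC7A3 and GLUL were given per array after their values were seen. BCAP31 was named, with its difference alone, after its value was seen. Promoter windows came from RefSeq on GRCh38.p14, and gene order from RefSeq. Alternatives were each replicate left out, a replicate block, a further quantile normalization, array weights, a robust prior, a filter on SD, a minimum fold, the median of probe sets and leaving out s_at and x_at probe sets. The last of these kept such probe sets for genes that have no others.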

Additional observations from a re-analysis of the deposited data

How the results depend on the processing

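The replicate block moved the calls among transporter genes from 9 to 8 (6 higher, 2 lower) and among their probe sets from 20 to 15, with 12 higher and 3 lower. It left 3 of the other transporter genes called, 3 sensing genes and 12 response genes. Same-numbered samples deviated from their group means with correlations of -0.05, 0.13 and -0.01, and the other pairs with correlations from -0.12 to 0.13. Whether same-numbered samples shared a culture or a processing day cannot be read from these values.

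With 1 replicate left out, the called transporter probe sets numbered 14 to 18, with 11 to 13 higher and 3 to 6 lower, and the called genes 8 to 9, with 6 to 7 higher and 2 to 3 lower. Called genes numbered 2 to 6 in the other transporters, 1 to 4 in sensing and 9 to 14 in the response list. SLC16A10, SLC6A8, SLC7A7, SLC38A2, SLC25A13, SLC38A5, SLC15A4 and SLC1A4 were called in all 6 of these fits. For these fits, the block and the other settings, the shares of all genes and probe sets called are not given. The counts of calls there have no background beside them.

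Tested against a minimum fold of 1.2, 3 transporter probe sets were called (3 higher, 0 lower) and 2 genes (2 higher, 0 lower), SLC16A10 and SLC6A8, since that test asks for a larger change. The call of SLC43A1 was also lost with the block (adjusted p = 0.0772) and among genes with an SD over the median (0.0516) in limma. SLC38A7 was called with array weights (adjusted p = 0.0275). No other setting moved a count of calls by over 1.5 times, and no called difference changed sign. Alternatives for background correction and dim probes could not be run on centred values. The SD filter does not replace the latter, since the SD includes the difference between the lines and does not measure signal.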
